A study of Rattus norvegicus with 14 samples.

Results

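The comparison sets 4 pools of whole epididymides from 28-day-old rats against 3 pools from 7-day-old rats, 7 of the 14 pools in the series, and asks what changed in the organ over the prepubertal weeks. The pools were taken by the age in their titles, and no measured value entered the choice. All rats were of the Sprague-Dawley strain, and the labels name no treatment and no genetic change. The day 7 pups were still with their lactating mothers, as were the pups of day 18, while the rats of day 28 and day 60 fed freely. The organs were frozen before RNA was extracted, each pool was measured on 1 RatGene 2.0 ST array, and the number of animals in a pool is not given in the labels. Nothing in the labels says whether the pools of an age came from separate litters, so the p-values measure the spread between these pools. The 4 pools of day 18 were in the same model and show how much of a difference had been reached by that age. The 3 pools of day 60 were used for the spread and for the check on sperm. They also entered the level taken as background and the choice of probes for a gene, and gave a later level for Lcn8.

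The epididymis is the long coiled duct that links the testis to the vas deferens, and sperm acquire motility and are stored in it. It derives from the Wolffian duct. After birth its epithelium stops dividing and takes on its adult types: principal cells, which secrete proteins that coat sperm and absorb fluid, narrow and clear cells, which acidify the lumen, and basal cells, which sit on the basement membrane. Whole organs were used, so every value also holds stroma, smooth muscle, vessels, nerves, immune cells and the outer covering, and fewer cells of a type and less RNA per cell cannot be told apart.

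Levels are given as the log2 signal of a gene, pool by pool or as a mean over the pools of an age, and differences as log2 of day 28 over day 7, with the SE of the limma fit. A difference of 1 is a 2-fold change, and a gene is called where its adjusted p is under 0.05. Of the 18166 genes tested, 1344 olfactory and vomeronasal receptor genes served as a gauge of background, and the 95th percentile of their levels, 4.92, is called the background level. The receptor genes themselves drifted upward by a median of 0.11 between the ages, with 134 called higher and 18 lower, so small rises of genes near background have that size of drift beside them. Markers of the epididymis were present at day 28: the principal cell markers Lcn5, Crisp1, Adam7, Rnase9 and Rnase10 had means of 13.41, 11.41, 12.43, 11.56 and 10.48. At day 7 the duct epithelium markers Pax2, Pax8, Cdh1, Epcam and Krt8 lay between 8.28 and 10.70, while the means of Crisp1, Adam7, Rnase9 and Rnase10 were under the background level.

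The sperm transcripts Odf1, Prm1, Tnp1, Tnp2 and Akap4 had means at or under the background level at both ages and above it at day 60. Odf1, a protein of the sperm tail, had values of 3.76, 3.93 and 3.55 at day 7 and 3.95, 4.13, 4.31 and 4.14 at day 28, all under the background level, against 8.25, 8.88 and 8.49 at day 60. Its difference of 0.39 ± 0.14 was called (adjusted p = 0.0367, limma). The call was lost after quantile normalization (adjusted p = 0.177, limma) and on leaving out any single one of 5 pools (up to 0.162). Prm1, the protamine that packs sperm DNA, lay at 4.52, 4.88 and 4.64 at day 7 and 4.72, 4.92, 4.99 and 5.03 at day 28, around that level, and at 6.90 to 7.73 at day 60. The day 7 and day 28 values of Prm1 overlapped and its difference of 0.24 was not called. The spermatid genes Tnp1, Tnp2 and Akap4 were under the background level at both ages, with differences of -0.19, 0.29 and 0.27 that were not called. Prm2 was above that level at both ages and rose by 0.43 ± 0.12, from a mean of 5.81 to 6.24, and lay at 6.34 at day 60. Of the 49 haploid germ cell genes measured, 14 rose, 3 fell and 32 were not called, with a median of 0.24, and 26 were under the background level at both ages. The 3 largest rises were those of Dkkl1 (1.37 ± 0.11), Pgk2 (0.93, from under background to a mean of 5.06) and Ldhc (0.91, under background at both ages in the mean and not called without day 7 replicate 1, adjusted p = 0.0632), and Tcp11, Fscn3 and Tekt2, genes of the sperm head and tail, were lower (-2.32, -0.68 and -0.59). After quantile normalization 9 rose and 4 fell. All 4930 genes with a mean under the background level drifted upward by a median of 0.12, with 634 called higher and 252 lower.

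**Figure D1:**
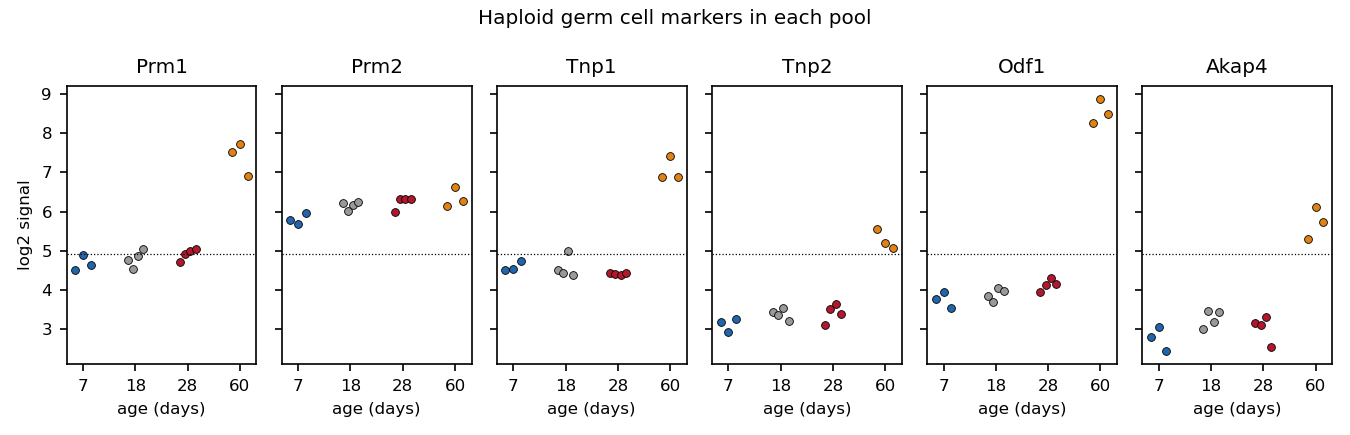
The plot gives the log2 signal (vertical axis) of 6 haploid germ cell markers in every pool by age in days (horizontal axis), 1 point per pool, with the background level of 4.92 as a dotted line. For Prm1, Tnp1, Tnp2, Odf1 and Akap4 the points of days 7 to 28 lie around or under the dotted line and those of day 60 above it, while Prm2 lies above the line at every age.

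Of the 18166 genes, 8711 (48.0%) differed between the ages by limma's test: 3728 were higher at day 28 (20.5%) and 4983 were lower (27.4%), and for 9051 (49.8%) the values of the ages did not overlap. Counts of list members given below are to be read beside these shares. The median difference of all genes was 0.0059 and the median SE 0.11. More genes fell than rose, an order that turned to 4773 higher and 4392 lower once each array was centred on its median, but the large changes were rises: 840 rose and 892 fell by at least 2-fold, 294 and 100 by at least 4-fold, and 137 and 23 by at least 8-fold. The fitted rise was 64-fold or more for 26 genes. Of the 137 genes that rose at least 8-fold, 45 had every day 7 pool under the background level, and their fitted folds have no measured base. For such genes, and for falls with every day 28 pool under it, "at least" gives the fold of the brighter age's mean over the background level.

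**Figure D2:**
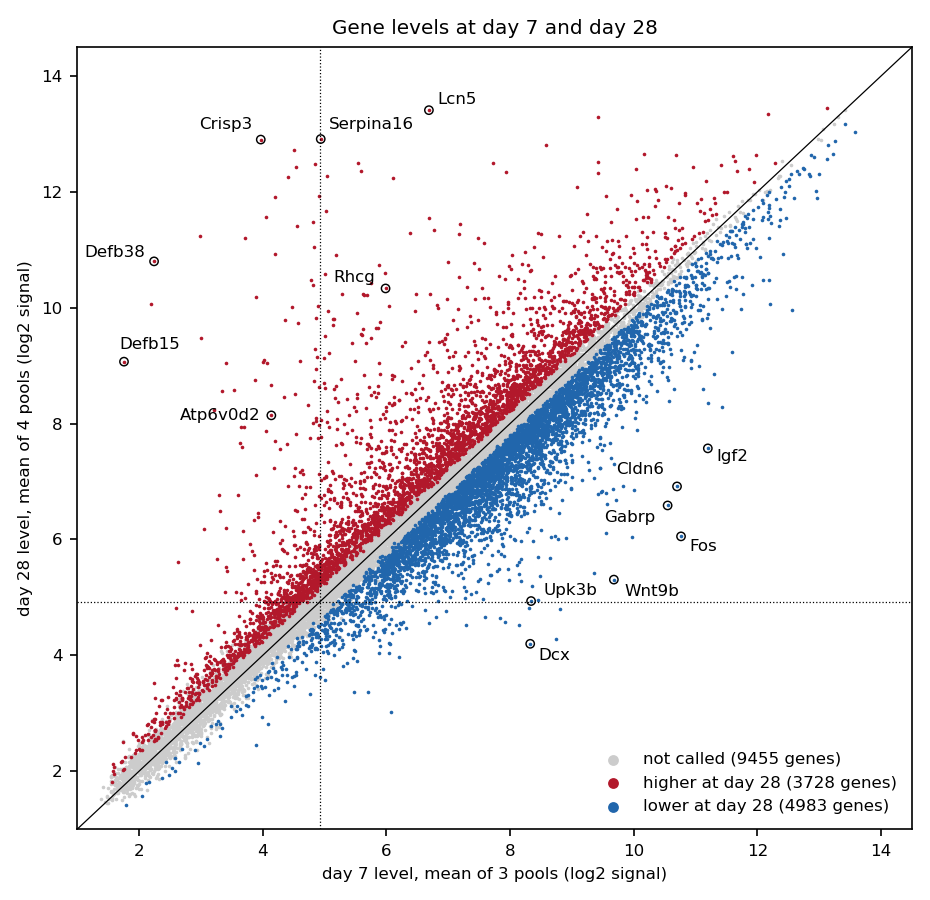
Each point is a gene, with its mean log2 signal over the 3 day 7 pools on the horizontal axis and over the 4 day 28 pools on the vertical axis; red genes were called higher and blue genes lower at day 28, and dotted lines mark the background level of 4.92. The cloud of large rises in the upper left, from Defb15 and Defb38 to Crisp3, Serpina16 and Lcn5, has no match of equal size among the falls, where Fos, Wnt9b, Dcx and Igf2 are among the furthest from the diagonal.

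The 15 largest fitted rises were mostly genes of proteins that the epithelium secretes or displays to passing sperm. Crisp3, a cysteine-rich secretory protein, had values of 3.87, 3.93 and 4.10 in the day 7 pools and 12.76, 13.01, 12.88 and 12.96 in the day 28 pools. Its fitted difference of 8.93 ± 0.21 (adjusted p = 1.88e-13, limma) rests on day 7 values under background, and the rise was at least 253-fold. The beta-defensin Defb38, a small cationic peptide, lay at 2.79, 2.16 and 1.78 at day 7 and at 10.82, 10.74, 10.86 and 10.78 at day 28, a rise of at least 58.9-fold. Both genes were thus at background in all day 7 pools and high in all day 28 pools. Pate10, one of the small secreted proteins named after the prostate and testis, rose at least 79.6-fold. The serpin protease inhibitors Serpina1fl2, Serpina16 and Serpina1f had day 7 means of 4.50, 4.94 and 4.84, at the background level, and day 28 means of 12.71, 12.91 and 12.47. Adam7, a membrane protein that sperm take up in the duct, went from 4.52, 4.23 and 4.85 to 12.26, 12.59, 12.41 and 12.47. Of the others, Rnase12, Defb44, Rnase9 and Defb15 rose at least 127-fold, 78.1-fold, 99.7-fold and 17.7-fold. Spag11c, a defensin-like sperm antigen, and Defb23, whose day 7 means were also under background, reached means of 12.25 and 11.93 at day 28, and Bin2a and Pate6l rose by 7.23 ± 0.13 and 6.97 ± 0.16.

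Other members of these families rose too, but not all of them. Of the 38 beta-defensins 33 rose and 5 were not called, with a median difference of 3.25 against 0.0059 over all genes. The uncalled members were Defb33 (0.21), Defb24 (0.049), Defb36 (0.016), Defb40 (0.0064) and Defb4 (-0.13). For Defb40 the array's probe clusters disagreed, and their mean rose by 1.80. Of the 15 Crisp and Pate genes 12 rose (median 5.53), and Crispld1, a relative of the Crisp genes, fell by 2.48 ± 0.12. Crisp1, which coats sperm, went from a mean under background to one of 11.41, and Pate3 rose at least 94.6-fold. In the ribonuclease A family the rises split sharply: Rnase12, Rnase9, Rnase13 (6.66), Rnase10 (5.70) and Rnase11 (5.57) rose together, whereas Rnase1, under background at both ages, rose by 0.49 ± 0.18, a call lost on leaving out any single one of 4 pools (adjusted p up to 0.235, limma), and Rnase4 (-0.015) and the angiogenin gene Ang (0.14) were not called. Lipocalins are carriers of small lipophilic molecules, and 8 of 12 rose, by graded amounts without such a sharp split. Lcn5, which binds retinoic acid, went from 7.24, 6.35 and 6.46 to 13.41, 13.44, 13.36 and 13.43, a 106-fold rise. Lcn10 rose by 4.86 ± 0.18, Lcn12 by 4.67 ± 0.10 and Lcn8 by 1.83 ± 0.30, while Lcn2, an antibacterial lipocalin of other tissues, was not called (-0.12). For Lcn8 the day 28 mean of 7.10 was under the day 60 mean of 11.96. Of the 15 cystatins, inhibitors of cysteine proteases, 7 rose and 11 had means under the background level at both ages. Cstdc2 rose at least 28.3-fold, while Cst11 and Cst12, the next largest differences (1.25 and 1.20), are among those under background. The motif TGTTCT, the core of the androgen response element, was sought in the promoter window described with the sequences. It was in 9 of the 20 risen beta-defensins with a promoter (45.0%). Among genes with a promoter it was in 27 of the 104 that rose at least 8-fold (26.0%), against 2311 of 14503 tested (15.9%). TATAAA was also more frequent in those beta-defensins, in 6 of the 20 (30%) against 11.87% of all promoters. The beta-defensins are members of 1 family, and control by androgen was not tested.

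Protease inhibitors moved in both directions. Of 42 measured 26 rose and 8 fell (median 0.79). The risers included Serpina1fl1 (6.78), Spint3 (4.56) and Eppin (2.36), an inhibitor bound to the sperm surface, and Wfdc9 and Spink1 rose at least 17.5-fold and 8.13-fold. Those that fell were led by Wfdc21 (-3.15) and included Serpinh1 (-0.91), the collagen chaperone, and Serpine2 (-0.79), an inhibitor of thrombin and related proteases. Among other proteins that sperm acquire, Clpsl2 rose by 4.40 ± 0.11, Cd52, a small sperm-coating glycoprotein, by 4.23 ± 0.14, and the carboxylesterase Ces5a by 3.88 ± 0.082. Ros1, the receptor kinase needed for the initial segment to form, rose by 2.17 ± 0.10, and the neprilysin gene Mme fell by 0.67 ± 0.12, the 1 fall of that list.

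These genes did not all rise at the same time. Day 18 was set against the midpoint of the day 7 and day 28 means, which tests whether the steps before and after day 18 were of equal size; 2087 genes lay over the midpoint (11.5%) and 2066 under it (11.4%). Of the 137 genes that rose at least 8-fold, 68 were over the midpoint and 35 under it. Serpina16 was the furthest over, by 2.66 ± 0.17 (adjusted p = 8.1e-08, limma), with day 18 values of 11.60, 11.28, 11.95 and 11.50 against 12.97, 12.81, 12.98 and 12.88 at day 28. The surface protein Vsig1 (2.47), Stap1 (2.43), the proton pump subunit Atp6v0d2 (2.39) and the mucin-type glycosylation enzyme Galnt9 (2.22) were over the midpoint too. Their means were higher at day 18 (9.25, 10.18, 8.53 and 9.36) than at day 28 (8.73, 9.65, 8.14 and 8.29). Crisp3 (2.36), Serpina1fl1 (2.27) and Bin2a (2.23), like Serpina16, had most of their rise behind them by day 18. The opposite order was found for Cstdc2 (-2.89), Pate5 (-2.81), Defb22 (-2.75), Ly6g5c (-2.66), Defb15 (-2.30), Defb26 (-2.27), Spag11a (-2.17) and Clpsl2 (-2.14). Defb22 lay at 3.92, 4.06 and 4.05 at day 7, 3.63, 3.83, 3.79 and 3.91 at day 18 and 9.19, 9.25, 9.11 and 8.72 at day 28, so it was still under background in every pool of day 18. Within the beta-defensins 19 were over the midpoint and 9 under it, and within the Crisp and Pate genes 2 and 6. Where day 7 lay under background, the midpoint rests on an unmeasured base that can lie too low, which favours calls over it. Every day 7 pool was under background for 45 of the 137 genes. Defb38, called over by 0.67, had means of 2.24, 7.19 and 10.80 at days 7, 18 and 28.

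**Figure D3:**
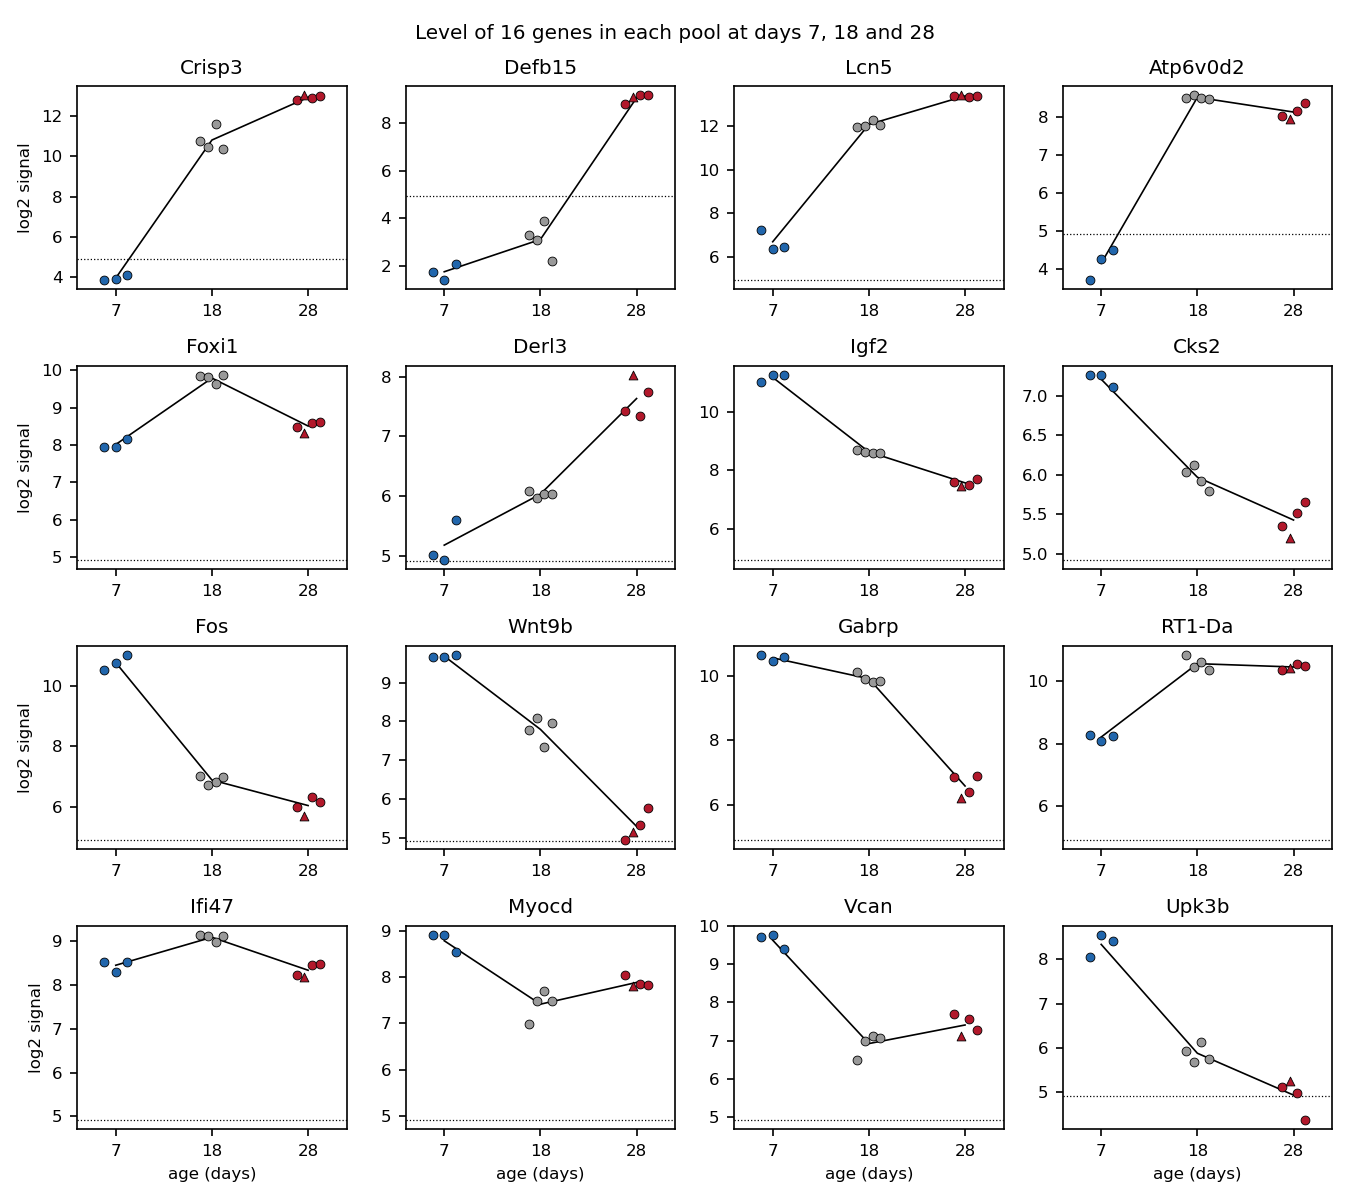
The log2 signal (vertical axes, scaled per panel) of 16 genes is plotted for every pool by age in days (horizontal axes), with a line through the means, a dotted line at the background level of 4.92 and a triangle for day 28 replicate 2. At day 18 Atp6v0d2 is above its day 28 level, Crisp3 most of the way to its own and Defb15 still under background. Foxi1 and Ifi47 are highest at day 18, and Myocd and Vcan lowest. Igf2, Cks2, Fos, Wnt9b and Upk3b fall at both steps.

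Genes of the cells that acidify the lumen rose between the ages. Of 26 clear and narrow cell genes 18 rose and 1 fell (median 0.62), and 14 lay over the midpoint at day 18. Atp6v0d2, part of the V-type ATPase that pumps protons, lay at 3.69, 4.24 and 4.48 at day 7, 8.52, 8.59, 8.52 and 8.49 at day 18 and 8.03, 7.97, 8.17 and 8.39 at day 28. It was at background in all day 7 pools and high in all others, a rise of at least 9.33-fold. The pump subunits Atp6v1b1 and Atp6v0a4 rose by 2.99 ± 0.12 and 2.81 ± 0.11, the ammonia transporter Rhcg by 4.35 ± 0.11, the adaptor Stap1 by 3.79 ± 0.13 and Hepacam2, an adhesion protein of such cells, at least 6.59-fold. Foxi1, the transcription factor that specifies these cells, differed: it went from 7.94, 7.95 and 8.16 to 9.86, 9.82, 9.64 and 9.87 and back to 8.49, 8.33, 8.60 and 8.62, so its net rise was only 0.49 ± 0.094 while its day 18 level was 1.53 ± 0.078 over the midpoint. Dmrt2 (1.62), Tfcp2l1 (1.22) and Kit (1.17) were over the midpoint as well. The anion exchanger Slc4a1, which red cells also carry, was the member that fell (-0.94).

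More transport genes of the epithelium rose than fell, 28 and 9 of 51, beside 20.5% higher and 27.4% lower of all genes. The water and glycerol channel Aqp9 had values of 5.23, 4.93 and 5.26 at day 7 and 9.66, 9.61, 9.80 and 9.74 at day 28, a 23.6-fold rise. Aqp2 rose by 3.51 ± 0.20, the calcium channel Trpv6 by 3.17 ± 0.089, the phosphate carrier Slc34a2 by 2.68 ± 0.12 and the carnitine carrier Slc22a5 by 2.31 ± 0.091. Against these, Gabrp, which forms part of a GABA-activated chloride channel, went from 10.63, 10.43 and 10.58 to 6.85, 6.21, 6.39 and 6.89, 15.6-fold lower, and its day 18 values of 10.10, 9.89, 9.79 and 9.84 lay nearer to those of day 7. Cftr, the chloride channel mutated in cystic fibrosis, fell by 2.30 ± 0.12, and the potassium channel Kcnj16 was at least 5.17-fold lower. Day 18 was over the midpoint for Cftr (0.54), Kcnj16 (0.55) and Gabrp (1.33), so each lost more after day 18 than before it.

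The machinery that folds and exports secreted proteins rose as a group. Of 64 genes of the endoplasmic reticulum (ER) 46 rose and 5 fell (median 0.49). Derl3, which pulls misfolded proteins out of the ER, had values of 5.02, 4.94 and 5.60 at day 7 and 7.43, 8.02, 7.35 and 7.74 at day 28, a difference of 2.44 ± 0.20. The disulfide isomerase Agr2, under background in the day 7 mean, rose by 3.21 ± 0.20, the signal peptidase subunit Sec11c by 2.25 ± 0.11, Creld2 by 1.66 ± 0.086 and the chaperone Hspa5 by 1.06 ± 0.069. The members that fell were Kdelr3 (-1.40), Creb3l1 (-1.21), Kdelr2 (-0.46), Creb3l2 (-0.26) and Atf4 (-0.22, a call lost on leaving out any single one of 4 pools, adjusted p up to 0.113), and the stress factors Xbp1 (0.11) and Ddit3 (0.12) were not called.

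Promoters of the ER genes are shown because they carry a known response element of ER stress, in which CCAAT and CCACG are 9 bases apart. Sequences of the 250 bases before the RefSeq start site were taken for the GRCr8 build, 5′ to 3′ on the strand of the gene, and capitals mark the element, which here stands in reverse complement. The element contains the shorter motif CCAAT. The window searched for all motifs ran from 250 bases before to 50 after the start site, on both strands, and was at hand for 14503 of the 18166 genes. The element was in 8 of the 39 ER genes that rose and had a promoter (20.5%), namely Hspa5, Hsp90b1, Calr, Canx, Creld2, Dnajc3, Derl3 and Ero1b, against 17 of the 14503 promoters (0.117%). Derl3 is at chr20:12766466-12766715 on the minus strand and Creld2 at chr7:121789134-121789383 on the plus strand.
Derl3: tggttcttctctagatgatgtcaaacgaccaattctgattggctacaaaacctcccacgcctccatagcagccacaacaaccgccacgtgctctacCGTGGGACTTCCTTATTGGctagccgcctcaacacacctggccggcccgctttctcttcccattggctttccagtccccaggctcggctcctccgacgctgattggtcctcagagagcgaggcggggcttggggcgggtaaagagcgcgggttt
Creld2: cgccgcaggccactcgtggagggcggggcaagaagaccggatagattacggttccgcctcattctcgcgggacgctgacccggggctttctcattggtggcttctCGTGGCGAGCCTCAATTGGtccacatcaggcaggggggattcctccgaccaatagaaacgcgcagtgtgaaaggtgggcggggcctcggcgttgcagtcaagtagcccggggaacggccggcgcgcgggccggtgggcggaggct

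Enzymes that build glycans and lipids also changed. Of 77 Golgi glycosylation genes 29 rose and 21 fell, beside 20.5% higher and 27.4% lower of all genes. B3galt2, a galactosyltransferase, rose at least 12.6-fold, the sialyltransferases St8sia6 and St8sia5, the latter under background in the day 7 mean, rose by 4.14 ± 0.13 and 3.28 ± 0.21, while Galnt13, St8sia2 and B4galt6 were lower (-1.69, -1.63 and -1.28). Of 21 genes of cholesterol synthesis 17 rose, 1 fell and 3 were not called (median 0.93). Ebp, a sterol isomerase, went from 8.38, 8.22 and 8.55 to 10.99, 11.06, 11.02 and 11.15, and Tm7sf2, Idi1 and Fdps rose by 2.56 ± 0.10, 2.13 ± 0.085 and 1.67 ± 0.11. Dhcr7, which catalyses the last step, fell by 0.62 ± 0.089.

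Amino acid and polyamine enzymes were among the larger metabolic changes, with 14 of 29 higher and 7 lower. Cth and Cbs, which make cysteine from homocysteine, rose by 3.76 ± 0.10 and 2.73 ± 0.081, and Sat1, which acetylates polyamines, by 2.30 ± 0.085. The proline enzymes Pycr1 and Aldh18a1 were lower (-1.58 ± 0.11 and -1.48 ± 0.087). Ass1, of arginine synthesis, fell by 1.21 ± 0.14 and yet stood 1.93 over the midpoint at day 18. Of 56 glutathione and antioxidant genes 19 rose and 15 fell: the glutathione transferases Gsta1, Gsta3 and Gsta4 rose by 3.54 ± 0.099, 3.44 ± 0.098 and 1.91 ± 0.089, and Gstm5, Gpx7 and Gstk1 were lower (-1.66, -1.21 and -1.06). Within the arachidonic acid list 9 of 30 rose and 12 fell, and centring the arrays gave 11 and 10. The prostaglandin D synthase Ptgds (2.78 ± 0.13), the lipoxygenase Alox12 (2.09 ± 0.16) and the prostaglandin E synthase Ptges (1.68 ± 0.098) were higher, and the lipoxygenase Alox15, the receptor Ptger3 and the cyclooxygenase Ptgs2 were lower (-2.63, -1.26 and -1.22). Of 81 respiratory chain genes 24 rose and 13 fell (median 0.048). Ndufv3 and Ndufa1 rose by 1.49 ± 0.10 and 0.83 ± 0.12 and Ndufb4l1 at least 1.28-fold, while Cox6b2, a subunit best known from testis, Atp5f1d and Uqcrh were lower (-2.91, -0.62 and -0.61).

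Some claudins, the proteins that set what passes between epithelial cells, fell and others rose. Cldn6, a claudin of embryonic epithelia, had values of 10.89, 10.51 and 10.69 at day 7 and 6.73, 6.82, 6.92 and 7.18 at day 28, 13.8-fold lower, and Cldn9 and Cldn15 were lower (-2.30 and -0.74). Cldn23, Cldn2, Cldn3 and the junction plaque protein Cgnl1 rose by 2.70 ± 0.10, 2.32 ± 0.18, 1.31 ± 0.082 and 1.67 ± 0.089. Over the whole list 12 of 40 rose, 5 fell and 23 were not called, beside 20.5% higher and 27.4% lower of all genes. Among the gap junction genes 5 of 17 rose, led by Gja5 (1.36), Gjb5 (0.96) and Gjb6 (at least 1.02-fold), and 3 fell, namely Gjb2 (-0.76), Gja1 (-0.75) and Gja4 (-0.39, not called without day 7 replicate 1, adjusted p = 0.107); without day 28 replicate 2 the counts were 4 and 4.

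Genes of epithelial identity changed in both directions. Of 31 keratin and adhesion genes 16 rose and 8 fell (median 0.30), and 16 stood over the midpoint at day 18. Epcam, an adhesion protein of all simple epithelia, had day 7 values of 9.81, 9.51 and 9.74 and day 28 values of 9.78, 9.74, 9.75 and 9.82 (difference 0.085, not called), with 10.57, 10.52, 10.47 and 10.56 at day 18. Prom1 rose by 2.91 ± 0.068, the transcription factor Ehf by 1.09 ± 0.082 and its relative Elf5 at least 2.19-fold, while Krt7, Cdhr5 and Vil1 were lower (-1.70, -1.34 and -1.04). Of 18 basal cell genes 6 rose and 5 fell, and quantile normalization gave 5 and 5. The basal cell markers Tp63 and Krt14 rose by 2.39 ± 0.10 and 2.92 ± 0.12 and Krt15 at least 4.96-fold, whereas Itgb6, Krt17 and Ngfr, also listed for basal cells but made by other cells too, were lower (-2.75, -1.22 and -1.01). Of 21 motile cilia genes 3 rose, 7 fell and 11 were not called. Ccno and Hydin were higher (1.68 and 0.56), as was Rsph1 (at least 1.35-fold), and Tppp3 and Tekt1 were lower (-1.23 and -0.82), as was Ccdc39 (at least 1.96-fold).

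Steroid receptor genes and genes known to respond to steroids moved in both directions. Esr1, the alpha oestrogen receptor, fell by 1.31 ± 0.17, Pgr, the progesterone receptor, was at least 1.49-fold lower, and Nr3c2, the mineralocorticoid receptor, rose by 0.87 ± 0.17. Fkbp5, a co-chaperone induced by androgens and glucocorticoids, had values of 7.95, 7.78 and 7.93 at day 7 and 9.89, 9.89, 9.95 and 9.99 at day 28. It did not overlap between the ages, and Hsd17b11 rose by 1.94 ± 0.071. The kallikrein Klk1 was called higher with means under background at both ages (2.86 and 4.77), while Tsc22d3, a glucocorticoid target, fell by 1.27 ± 0.11. Altogether 17 of 39 rose and 5 fell. In the vitamin A pathway 10 of 28 rose and 10 fell, or 12 and 9 after centring the arrays. Rdh16, Aldh1a1 and the retinol esterifying Lrat rose (2.44, 1.46 and 1.14), and Crabp1, which carries retinoic acid in cells, Aldh1a2, which makes it, and its receptor Rara were lower (-2.65, -1.72 and -1.30).

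Genes of fetal growth were among the largest falls. Igf2, the fetal growth factor, had values of 11.05, 11.27 and 11.27 in the day 7 pools, 8.72, 8.64, 8.58 and 8.60 at day 18 and 7.59, 7.48, 7.51 and 7.71 at day 28. The ages did not overlap, and the fall of 12.3-fold had an adjusted p of 9.63e-14 (limma). Of 28 genes of the insulin-like growth factor axis and the imprinted growth network 21 fell and 1 rose (median -0.89), and 13 were under the midpoint at day 18. Gnas, a locus of several overlapping transcripts, was at least 8.01-fold lower, and Dlk1 fell by 2.95 ± 0.15. Plagl1, Zim1 and Slc38a4 were lower as well (-2.51, -2.51 and -2.18), whereas the receptor Igf1r was not called (0.054) and Asb4, under background at both ages, was the 1 called higher (0.60). Among fetal regulators of RNA and chromatin 13 of 17 fell: Igf2bp2 fell by 2.65 ± 0.14, Plag1 fell by 1.95 ± 0.19 and Hmga2 was at least 1.52-fold lower, while Arid3b rose by 0.50 and Lin28b, under background at both ages, by 0.39, a call lost without day 7 replicate 2 (adjusted p = 0.0775) or 3.

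Many signals that shape the growing duct fell too. Wnt9b, the ligand through which the Wolffian duct induces its neighbours, had values of 9.67, 9.66 and 9.71 at day 7 and 4.96, 5.16, 5.33 and 5.78 at day 28, 20.7-fold lower. The R-spondin receptor Lgr5, which raises Wnt signalling, fell by 2.80 ± 0.10, the receptor Fzd10 fell by 1.54 ± 0.10 and the inhibitor Dkk2 fell by 1.42 ± 0.12, while Wif1, another inhibitor, Jag2, a Notch ligand, and Lef1 rose by 1.64 ± 0.13, 1.33 ± 0.099 and 1.18 ± 0.13. In that list 31 of 73 fell and 15 rose, beside 27.4% lower and 20.5% higher of all genes. In the list of FGF, GDNF and hedgehog signals 25 of 46 fell and 8 rose. The hedgehog effectors Gli3, Gli2 and Smo were lower (-1.65, -1.38 and -1.31), as was Fgfr4 (-1.40). Gfra1 and Ret, the receptor pair of GDNF, rose by 1.89 ± 0.092 and 1.05 ± 0.16, and the phosphatase Dusp5 and the growth factor Egf by 1.33 ± 0.15 and 1.29 ± 0.11. Of the positional transcription factors 27 of 58 fell and 13 rose: Lhx1, Osr1 and Wt1 were lower (-2.20, -2.06 and -1.64), and Pax2, Pax8 and Tfcp2l1 were higher (1.07, 0.59 and 0.80).

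Genes of cell division fell almost without exception. Of 71 cell cycle genes 68 fell and 3 were not called, with a median of -1.08; the exceptions were Ccnd1 (0.085), Cdk6 (-0.16) and E2f1 (-0.34). Cks2, a partner of the mitotic kinase, had values of 7.26, 7.26 and 7.11 at day 7 and 5.35, 5.19, 5.51 and 5.66 at day 28, and Mki67, the proliferation marker, 10.51, 10.67 and 10.63 and 9.25, 9.06, 9.19 and 9.28. Neither overlapped between the ages. Mybl2 fell by 2.10 ± 0.13 and Aurkb fell by 1.68 ± 0.11. The day 28 mean of all 71 was nevertheless above the background level. Genes of the cytosolic ribosome fell too, with 42 of 56 lower and a median of -0.43; the largest falls were those of Rps15 (-1.09), Rpl18 (-0.99) and Rps14 (-0.89). Ribosomal protein genes have many processed copies, so the split of signal between copies is uncertain.

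Many promoters of the fallen cell cycle genes held CCAAT or TTTGAA, motifs known to drive expression late in the cycle. TTTGAA is the cell cycle homology region. Each motif was counted by itself, and promoters with both were not counted. Among the 55 fallen cell cycle genes with a promoter 72.7% held CCAAT and 52.7% TTTGAA, against 37.97% and 15.91% of all promoters. CCAAT was nearly as frequent in the ER genes that rose, in 27 of 39 (69.2%), so it does not set the fallen genes apart. TTTGAA was in 2.6% of those ER genes. Cks2 and Ect2, which guides cytokinesis and fell by 1.49 ± 0.096, were chosen because they hold both. Capitals mark the motifs in either orientation. Cks2 is at chr17:13727520-13727769 and Ect2 at chr2:111966627-111966876 of GRCr8, both on the minus strand.
Cks2: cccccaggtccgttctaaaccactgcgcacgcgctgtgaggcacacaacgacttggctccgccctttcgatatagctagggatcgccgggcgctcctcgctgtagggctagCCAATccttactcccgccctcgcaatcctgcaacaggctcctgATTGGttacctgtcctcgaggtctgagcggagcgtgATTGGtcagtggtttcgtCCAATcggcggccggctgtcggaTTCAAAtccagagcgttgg
Ect2: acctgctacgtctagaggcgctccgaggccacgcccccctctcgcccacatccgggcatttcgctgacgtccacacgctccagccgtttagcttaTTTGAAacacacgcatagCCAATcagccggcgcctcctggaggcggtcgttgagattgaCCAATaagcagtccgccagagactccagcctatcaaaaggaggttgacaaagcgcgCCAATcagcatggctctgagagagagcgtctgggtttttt

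Immediate early genes, which answer growth factors, handling and stress within minutes, held the largest fall of all genes. Fos had values of 10.53, 10.75 and 11.01 at day 7, 7.01, 6.73, 6.84 and 6.996 at day 18 and 5.99, 5.72, 6.34 and 6.16 at day 28, and was 26.2-fold lower at day 28 (adjusted p = 4.55e-12, limma). Of 42 such genes 31 fell and 3 rose (median -0.86). The phosphatase Dusp1 fell by 3.13 ± 0.093, the matricellular Ccn1 fell by 3.03 ± 0.14, Egr1 fell by 2.84 ± 0.14 and Zfp36, which destabilises messenger RNA, fell by 2.44 ± 0.12. Egr2 stood against the rest, with 5.88, 6.22 and 6.65 at day 7 and 8.74, 8.72, 8.62 and 8.89 at day 28, and Gadd45g and Sgk1 rose by 1.77 ± 0.12 and 0.57 ± 0.08.

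The CArG box, the site of serum response factor, is a known element of this class and is marked in capitals in the promoters of Zfp36 and Klf6, a zinc-finger factor that fell by 0.91 ± 0.097. It was in 3 of the 22 fallen immediate early genes with a promoter (13.6%; Egr1, Klf6 and Zfp36), against 1.37% of all promoters. The cyclic AMP response element TGACGTCA was in 18.2% of the 22 and in 2.42% of all. Zfp36 is at chr1:92799109-92799358 on the minus strand and Klf6 at chr17:69458479-69458728 on the minus strand of GRCr8.
Zfp36: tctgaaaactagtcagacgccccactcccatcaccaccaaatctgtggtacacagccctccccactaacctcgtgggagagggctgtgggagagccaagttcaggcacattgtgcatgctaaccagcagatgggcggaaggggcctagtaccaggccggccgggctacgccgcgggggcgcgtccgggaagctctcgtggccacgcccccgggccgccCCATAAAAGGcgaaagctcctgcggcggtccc
Klf6: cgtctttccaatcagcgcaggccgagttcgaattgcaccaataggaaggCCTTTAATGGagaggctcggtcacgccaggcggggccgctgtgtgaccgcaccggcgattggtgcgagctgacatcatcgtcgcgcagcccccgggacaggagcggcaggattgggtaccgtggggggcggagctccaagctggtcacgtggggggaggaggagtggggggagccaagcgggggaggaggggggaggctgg

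Most connective tissue genes fell. Of 50 proteoglycans and glycoproteins 38 fell and 4 rose (median -0.65), and 34 lay under the midpoint at day 18. Vcan, a large proteoglycan of growing tissue, had values of 9.72, 9.77 and 9.41 at day 7, 6.49, 6.98, 7.13 and 7.08 at day 18 and 7.68, 7.12, 7.56 and 7.27 at day 28, so the pools of days 18 and 28 were all far under those of day 7. Mfap2, of elastic fibres, and Postn, a cell adhesion protein of growing stroma, were lower (-2.36 ± 0.11 and -2.15 ± 0.092), and the rises of Omd (0.73), Lama1 (0.41) and Ncan (0.28) were small, that of Ncan lost on leaving out any single one of 5 pools (adjusted p up to 0.0996). Of the matrix enzymes 30 of 45 fell, led by P4ha3, a collagen prolyl hydroxylase that went from 9.92 to 10.02 to 6.27, 5.58, 6.12 and 6.19, and by Mmp16 (-2.05) and Mmp7 (-1.56). The net fall of Mmp7 was lost on leaving out any single one of 5 pools (adjusted p up to 0.160, limma). Mmp7 stood 1.89 over the midpoint at day 18, unlike most of its list, and so did the protease inhibitor Timp4, by 1.5. Timp4 rose between the ages by 0.64. Mmp12 (0.40) was under background at both ages, and its call was lost after quantile normalization and on leaving out any single one of 5 pools (adjusted p up to 0.146). Of the collagens 18 of 36 fell and 7 rose; Col6a6, Col5a2 and Col14a1 were lower (-1.67, -1.25 and -1.09), Col1a1, of the main fibrillar collagen, fell by 0.34 ± 0.079, and Col13a1, Col4a3 and Col18a1 rose by 2.56 ± 0.11, 0.94 ± 0.12 and 0.84 ± 0.10.

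The muscular wall took a different course. Of 25 smooth muscle genes 13 rose and 5 fell between the ages (median 0.25), but 19 lay under the midpoint at day 18, with a median of -0.49. Myh11, the smooth muscle myosin, had values of 9.90, 10.38 and 9.73 at day 7, 9.80, 10.16, 10.14 and 9.83 at day 18 and 11.21, 10.80, 10.95 and 10.79 at day 28. Its values lay higher in every day 28 pool than in any pool of the earlier ages. The net rise was 0.93 ± 0.15, and Actg2 and Pgm5 rose by 1.07 ± 0.17 and 0.77 ± 0.093. The coactivator Myocd, which switches on this programme, fell by 0.90 ± 0.14, and Itga8 and Smtn were lower too (-0.93 and -0.84). Desmin, encoded by Des, was not called net (-0.094), and its day 18 level was -0.74 from the midpoint.

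More endothelial genes fell than rose and nearly all mesothelial genes fell, while nerve genes had a median near 0. Of 26 endothelial genes 14 fell and 1 rose (median -0.26), with 4 higher after centring the arrays. Aplnr fell by 1.81 ± 0.14, Lyve1, a marker of lymph vessels and some macrophages, fell by 0.98 ± 0.091, the cadherin Cdh5 fell by 0.78 ± 0.073, and Vwf rose by 1.33 ± 0.11. Among nerve and Schwann cell genes 6 of 28 rose and 10 fell, with a median of 0.025 that was -0.07 after quantile normalization. Dcx, a microtubule protein of immature neurons, lay at 8.60, 7.98 and 8.39 at day 7 and 4.20, 3.84, 4.41 and 4.34 at day 28, under background in all day 28 pools, at least 10.6-fold lower. L1cam and Ncam1, adhesion proteins of axons and growing epithelia, were lower (-1.94 and -1.82), and Mal, an apical sorting protein that myelin and epithelia share, rose by 2.82 ± 0.12, and Th, which makes the transmitter of sympathetic nerves, at least 2.03-fold. In the mesothelium, the layer that covers the organ, 18 of 20 genes fell and 2 were not called, with a median of -1.10. Upk3b had values of 8.04, 8.55 and 8.42 at day 7 and 5.11, 5.26, 4.99 and 4.38 at day 28, and Lrrn4 and Msln were lower (-3.94 ± 0.20 and -2.96 ± 0.14).

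Genes of antigen presentation and lymphocytes rose, while macrophage and chemokine genes had no common direction. Of 28 antigen presentation genes 20 rose and 2 fell (median 0.58), and 22 lay over the midpoint at day 18. RT1-Da, a class II molecule that displays peptides to helper T cells, had values of 8.28, 8.11 and 8.26 at day 7, 10.84, 10.45, 10.62 and 10.36 at day 18 and 10.36, 10.44, 10.55 and 10.50 at day 28. Its chaperone Cd74 rose by 1.70 ± 0.10, RT1-Ba by 1.53 ± 0.13 and the class I light chain B2m by 0.90 ± 0.075, while RT1-N3 and Psmb10 were lower (-0.51 and -0.33). Of 41 lymphocyte genes 28 rose and 13 were not called (median 0.46). The granzyme Gzma rose by 1.76 ± 0.17, Cd7 by 1.70 ± 0.13, the signalling adaptor Skap1 by 2.18 ± 0.11 and the T cell receptor chain Cd3e by 0.63 ± 0.13, while the B cell markers Cd79a (0.053), Cd79b (0.25) and Ms4a1 (0.31) were not called. The pan-leukocyte marker Ptprc rose by 1.09 ± 0.095.

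Of 32 macrophage genes 8 rose and 9 fell, near the 20.5% and 27.4% of all genes; after centring each array on its median the split was 9 and 8. Siglec1 and Itgax rose by 1.32 ± 0.11 and 0.73 ± 0.082, Cd14, the endotoxin co-receptor, Fcer1g and Tyrobp were lower (-1.38, -0.90 and -0.68), and the defining markers Csf1r (-0.076), Adgre1 (-0.25) and Cd68 (-0.0097) were not called. Of the chemokines and their receptors 13 of 55 rose and 13 fell, beside 20.5% and 27.4% of all genes. Centring gave 16 and 11. Cxcl13, which draws B cells, had values of 7.78, 8.37 and 8.27 at day 7 and 5.22, 5.38, 5.28 and 5.75 at day 28, a fall of 6.65-fold. The membrane-bound chemokines Cx3cl1 and Cxcl16 and the macrophage chemokine Ccl3 were lower (-1.71, -1.46 and -1.68), and the receptor Xcr1 and the eosinophil chemokine Ccl11 rose by 1.14 ± 0.11 and 0.99 ± 0.15 and the receptor Ccr6 at least 1.52-fold.

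Interferon-stimulated genes had a net median near 0, and many lay over the midpoint at day 18. From day 7 to day 28, 7 of 40 rose and 11 fell, with a median of 0.0082 that became -0.04 after quantile normalization. At day 18, however, 24 lay over the midpoint and the other 16 were not called, with a median of 0.32. Ifi47, an interferon-induced GTPase, had values of 8.53, 8.29 and 8.53 at day 7, 9.14, 9.12, 8.98 and 9.11 at day 18 and 8.22, 8.17, 8.46 and 8.49 at day 28, all day 18 pools above the others. Isg15 (0.62), Irf1 (0.57), Mx1 (0.56) and Ifit1 (0.63) were over the midpoint too, and the net falls were led by Igtp (-1.13), Mx2 (-1.01) and Ifit2 (-0.98). The largest net rises of the list were those of Isg20 (1.71), Irf9 (0.68) and Oas1a (0.65). A level over the midpoint is not a peak: Isg20 had means of 8.26, 9.42 and 9.98 at the 3 ages and Igtp of 8.08, 7.62 and 6.95.

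**Figure D4:**
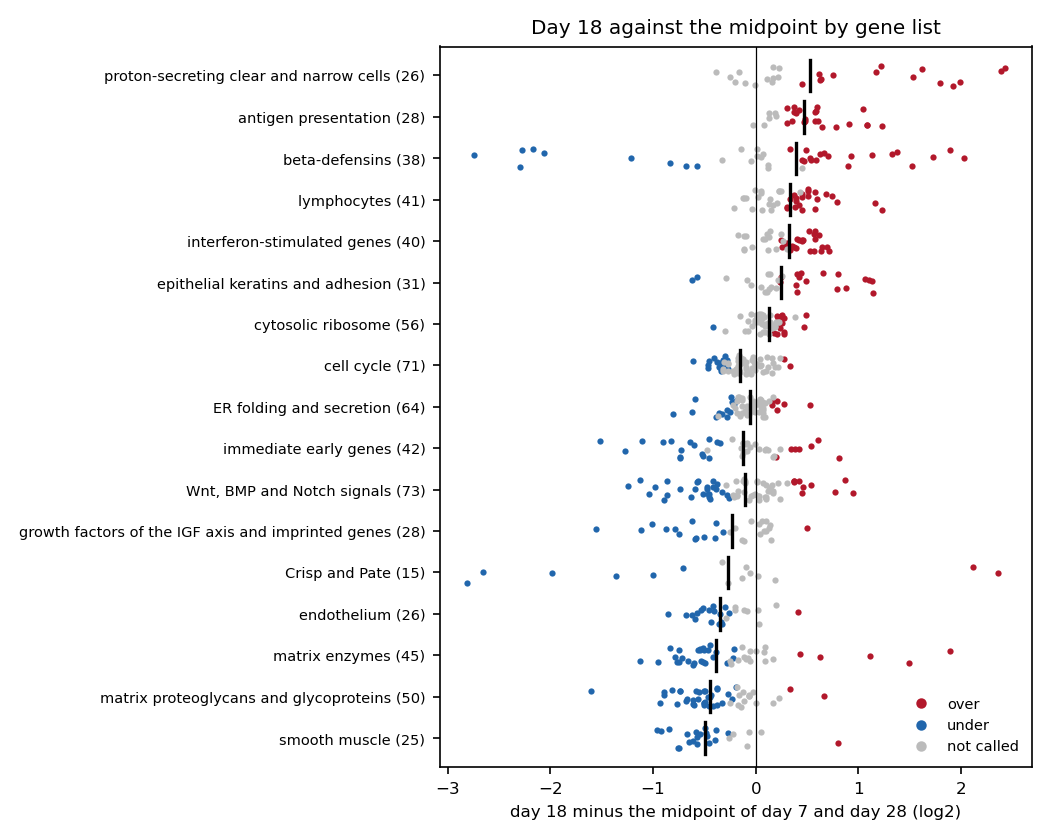
Every point is a measured gene of the list named at left (number measured in brackets), placed by its day 18 mean minus the midpoint of the day 7 and day 28 means on the log2 scale; red genes were called over and blue genes under the midpoint, and black bars are list medians. Clear cell, antigen presentation and interferon lists lie to the right, matrix, vessel and smooth muscle lists to the left, and the beta-defensins spread to both sides.

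Genes of tissues beside the duct also changed. Of 26 fat cell genes 19 rose and 7 were not called (median 0.80). Adipoq, the hormone adiponectin of fat cells, had values of 4.75, 5.80 and 4.98 at day 7 and 8.40, 8.93, 8.11 and 9.17 at day 28. The day 28 pools did not overlap those of day 7, and Scd and Thrsp, of fatty acid synthesis, which epithelia can also make, rose by 4.89 ± 0.15 and 4.41 ± 0.075. The summed signal of the 26 genes, on the log2 scale, was 11.27 to 11.51 in the day 7 pools and 13.51 to 13.87 in the day 28 pools. Thrsp and Scd, with day 28 means of 12.34 and 11.28, weigh heavily in that sum, which is thus no measure of fat cells alone. The second defining marker, the lipid droplet protein gene Plin1, rose by 1.68 ± 0.17. The part of fat cells in the rises of these and of the cholesterol genes was not tested. Svs4, a secreted protein of the seminal vesicle, rose from 4.82, 4.70 and 4.67 to 8.61, 7.96, 8.44 and 8.29, while the vesicle and prostate genes Svs5 (0.19) and Pbsn (0.17) stayed under the background level at both ages. Of 19 red cell genes 8 fell and 2 rose, with the globin genes Hba-a3 and Hbb-b1 and the membrane protein gene Gypc lower (-1.32, -0.82 and -0.88). The 2 rises, of Rhd (0.35) and Hbe1 (0.27, under background at both ages), were not called after quantile normalization, nor without day 28 replicate 2 (adjusted p = 0.0643 and 0.0806) or any single one of several other pools. Of 14 mast cell genes 3 rose and 3 fell, or 3 and 5 after quantile normalization: the protease gene Cpa3, Gata2 and Hpgds were lower (-1.17, -0.95 and -0.38), and the receptor Kit (0.38) and the protease Mcpt9 (at least 1.84-fold) were higher. Mcpt10, the third, was under background at both ages (1.02), and its call was lost without day 7 replicate 2 (adjusted p = 0.0591).

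**Figure D5:**
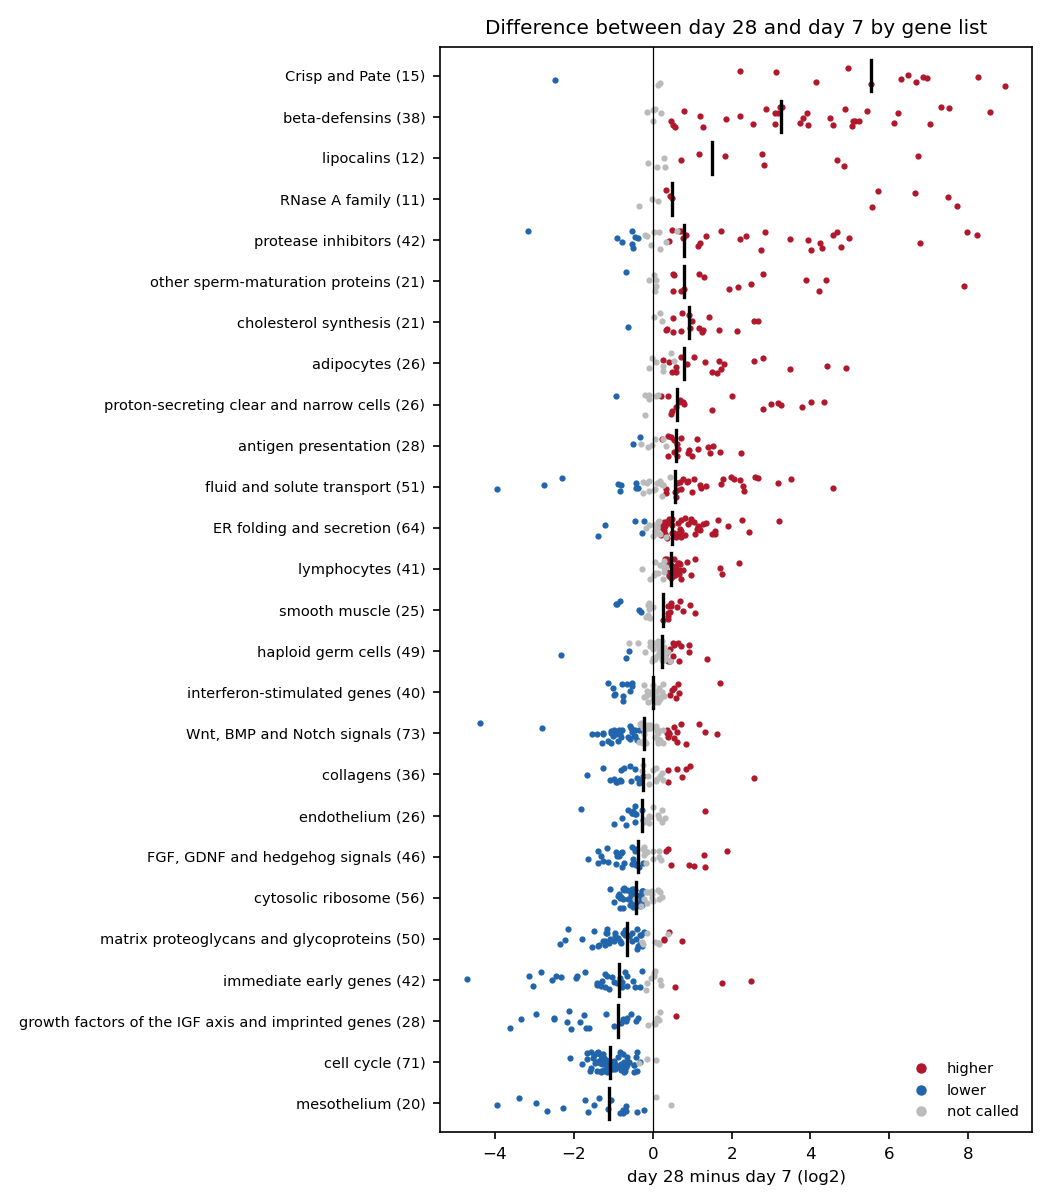
Every point is a measured gene of the list named at left (number measured in brackets), placed by its day 28 minus day 7 difference on the log2 scale; red genes were called higher and blue genes lower, and black bars are list medians. Secretory families reach furthest to the right (median 5.53 for the Crisp and Pate genes), while the cell cycle and mesothelial lists lie almost wholly to the left (medians -1.08 and -1.10).

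Genes of microRNAs, short RNAs that repress messages through their seed, were mostly at background on this array, which probes the precursor or its host transcript and not the mature strand. Of 363 measured, 266 were under the background level at both ages, and of the other 97 the test called 29 higher and 6 lower. The median over all 363 was 0.16, near the upward drift of genes under background. Fitted changes of at least 2-fold were called for Mir145 (1.39 ± 0.32), Mir27b (1.31 ± 0.18), Mir1224 (1.31 ± 0.17) and Mir143 (1.01 ± 0.24), which rose, and for Mir27a (-1.52 ± 0.27) and Mir7-1 (-1.22 ± 0.22), which fell; these were chosen after their values were seen. Measured against the background level only Mir143 was above it at both ages, Mir1224 was under it at both, and the bound was 1.46-fold for Mir27a, 1.02-fold for Mir27b and 1.04-fold for Mir7-1. The mature strands of 4 of them are shown in RefSeq's annotation of GRCr8, 5′ to 3′, with the seed, bases 2 to 8, in capitals. They are printed to show that the 3p strands of Mir27a and Mir27b share a seed, which miR-7a-5p and miR-1224 do not; with Mir27b near background at day 28, an opposite course of the pair is not established.
rno-miR-27a-3p: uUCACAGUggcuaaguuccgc
rno-miR-27b-3p: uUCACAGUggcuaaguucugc
rno-miR-7a-5p: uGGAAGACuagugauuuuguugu
rno-miR-1224: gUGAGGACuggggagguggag

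Mir27a lay at 4.87, 5.66 and 5.87 at day 7 and 3.62, 3.999, 4.50 and 3.67 at day 28, and Mir27b at 3.37, 3.73 and 3.83 and 5.01, 4.94, 5.03 and 4.83. Neither overlapped between the ages, and the lower values of each are under background. Mir145 and Mir143, which smooth muscle expresses, had day 18 levels of 3.32, 4.09, 3.89 and 3.22 and 5.83, 6.74, 6.29 and 6.77. For Mir145 the day 18 mean was -1.30 from the midpoint, under it like most of the smooth muscle list. Its day 18 values were all under background, so the size of that gap is not measured.

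The remaining large falls belong to none of the lists. Cyp2e1, a cytochrome P450, and the galectin Lgals2 were at least 14.2-fold and 9.32-fold lower. Kcnip4, a partner of potassium channels, under background in the day 28 mean, fell by 4.00 ± 0.20 and the semaphorin Sema3d, a guidance cue, fell by 3.49 ± 0.14. Sfta2 and Zfp575 were lower as well (-3.50 and -3.44). Of the 100 genes that fell at least 4-fold, 13 had every day 28 pool under the background level, and 68 lay under the midpoint at day 18 and 9 over it, so that most of these falls were larger before day 18 than after it. Across all 9455 genes without a net call, 688 were over and 398 under the midpoint at day 18.

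Replicate 2 of day 28 stood somewhat apart. Its median absolute deviation from the mean of the other day 28 pools was 0.169, against 0.0898 to 0.108 for the other 3, and limma's array weight was 0.346 against 0.680 to 1.54 for the other 13 pools. Without it 3710 genes were higher and 4673 lower, and 7958 of the 8711 calls (91.4%) were kept in the same direction. The genes over background in the mean of all 14 pools that it moved most were Rgsl2h, with 10.23 against 6.36, 9.04 and 7.89 in the other pools, and Cst8 (1.42 from their mean, with day 7 and day 28 means under background), Mir761 (1.31), Rps26-ps13 (1.19) and Lcn9 (1.19) upward, and Defb9 (-1.48), Ccl2 (-1.13), Snhg11 (-1.12), Ly96 (-1.07) and Kpna5 (-1.07) downward. The other 3 pools also differed widely from each other for Rgsl2h. Among the 351 genes named with values, the call or lack of one changed for 22 under at least 1 alternative, and none of the 351 changed direction while called.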

How the data were processed

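The values analysed are log2 probe set signals that the authors deposited as 1 table for all 14 arrays. Per the submitters' processing notes they were made with RMA, which corrects background, normalizes across arrays and summarises probes, and with the Transcriptome Analysis Console; versions, genome build and annotation are not given in the sources used here. RMA brings arrays to a common scale, so an overall shift of a whole array is largely removed before any comparison. Arrays give no read depth, so the number of pools limits the precision.

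Of 36685 transcript clusters, 18511 had 1 gene symbol, 575 had several and 17599 were not listed in the annotation used, and only the first were analysed. The cluster with the highest mean over the 14 arrays stood for a gene, which left 18166 genes, 291 of them with several clusters. Symbols came from the platform annotation, and 18394 clusters matched RefSeq genes by gene ID. Pools were grouped by the age in their titles. limma 3.58.1 (R 4.3.3) was fitted with a mean per age over all 14 arrays, and contrasts were day 28 minus day 7 and day 18 minus the midpoint of those ages, tested two-sided with Benjamini-Hochberg adjustment over all genes at 0.05. The fitting steps were tested on simulated data. No 2 arrays held identical values. Array medians lay between 5.21 and 5.42, and pools of 1 age correlated at 0.989 to 0.995 over genes.

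The comparison and the gene lists were chosen with earlier results of these data known, so no list was tested. The shares of all genes, 20.5% higher and 27.4% lower, are the base for every list count, also where they are not repeated. The text names the 15 largest called rises and falls of at least 2-fold without overlap between the ages, passing over predicted loci, the 3 largest of each list in each direction, the 8 genes furthest over and under the midpoint, and the 5 most deviant genes of day 28 replicate 2 in each direction; other list members were named after their values were seen. Alternatives changed the normalization, centring, floor, model, replicate block, array weights, choice of cluster and minimum change, and left out each pool in turn.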

Additional observations from a re-analysis of the deposited data

Results flagged for a closer look

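In 37 of the 702 groups of 4 pools formed by the 351 named genes at day 18 and at day 28, 1 pool stood apart from the other 3 by Dixon's test, and chance flags about 1 in 20 groups. Over all genes 2003 of 36332 such groups (5.51%) had such a pool, 613 of them through day 28 replicate 2 (3.37% of genes) and 119 to 179 through each other pool of that age.

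Day 18 replicate 1 lay above the other pools of its age for Cd74 (12.57 against 12.16 to 12.23) and Jag2 (7.57 against 7.29 to 7.33). Day 18 replicate 1 lay below the other pools of its age for Mir27a (3.64 against 4.11 to 4.15), Mme (7.07 against 7.37 to 7.40), Slc38a4 (6.06 against 6.22 to 6.24) and Spag11a (4.53 against 5.67 to 5.82). Day 18 replicate 2 lay above the other pools of its age for Ms4a1 (4.002 against 3.87 to 3.88). Day 18 replicate 2 lay below the other pools of its age for Cst11 (2.52 against 2.83 to 2.86), Rara (8.83 against 8.998 to 9.01) and Wfdc21 (7.44 against 7.87 to 7.90). Day 18 replicate 3 lay above the other pools of its age for Crisp1 (8.11 against 7.56 to 7.59), Pate10 (7.92 against 6.37 to 6.45), Pate3 (8.89 against 8.09 to 8.21), Pate6l (11.26 against 11.09 to 11.10) and Slc22a5 (9.24 against 8.87 to 8.90). Day 18 replicate 3 lay below the other pools of its age for Ccl11 (5.41 against 6.002 to 6.10), Creb3l2 (10.19 against 10.30 to 10.32) and Kcnip4 (5.59 against 5.81 to 5.84). Day 18 replicate 4 lay above the other pools of its age for Defb36 (5.63 against 5.31 to 5.36). Day 18 replicate 4 lay below the other pools of its age for Csf1r (8.65 against 8.83 to 8.85) and Msln (6.50 against 6.72 to 6.76). Day 28 replicate 1 lay above the other pools of its age for Myocd (8.04 against 7.82 to 7.85) and Rpl18 (11.26 against 11.18 to 11.19). Day 28 replicate 1 lay below the other pools of its age for Ang (6.84 against 7.30 to 7.34), Cstdc2 (8.48 against 10.03 to 10.23), Defb15 (8.81 against 9.12 to 9.18), Irf1 (8.08 against 8.24 to 8.25) and Prm2 (5.998 against 6.32 to 6.32). Day 28 replicate 2 lay above the other pools of its age for Cpa3 (6.09 against 5.59 to 5.65). Day 28 replicate 2 lay below the other pools of its age for Aldh1a2 (8.22 against 8.49 to 8.52), Ces5a (13.25 against 13.31 to 13.32), Cldn23 (8.68 against 8.85 to 8.88), L1cam (5.62 against 5.999 to 6.06), Lgr5 (6.68 against 6.92 to 6.95) and Ncam1 (6.63 against 6.99 to 7.05). Day 28 replicate 4 lay above the other pools of its age for Gja5 (7.11 against 6.97 to 6.98). Day 28 replicate 4 lay below the other pools of its age for Lrrn4 (4.90 against 5.53 to 5.64). Values are log2 signal, and the range after each is that of the other 3 pools. For Cstdc2 and Spag11a the single low pool lay over 1 below the others, and for Pate10 the single high pool over 1 above them.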

How the results depend on the processing

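The counts of genes over and under kept within 1.5 times of those reported under every alternative except a minimum change: requiring more than 1.5-fold within the test left 930 higher and 1151 lower at day 28, and 126 over and 72 under the midpoint at day 18. Leaving out each pool in turn gave 3222 to 3739 genes higher and 4470 to 4976 lower, and 1650 to 2107 over and 1738 to 2337 under the midpoint. Centring each array on its median raised the share of higher genes among the called from 42.8% to 52.1%, since it moved the median difference from 0.0059 to 0.080. The background level was 4.92 at the 95th percentile of the receptor genes and 4.54 at the 90th. Same-numbered pools did not deviate together (correlations of -0.023, 0.028 and 0.060 between days 7 and 28). Differently numbered pools gave -0.045 to 0.076. So few pools cannot exclude a pairing by replicate number, and the main fit used none. A fit with the replicate block called 3620 genes higher and 4828 lower.

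Of 7691 repeats over the 351 named genes and all alternatives, 7604 kept direction and call, 71 lost a call, 16 gained one and none reversed. On leaving out single pools, calls were lost for Hbe1 (10 pools, adjusted p up to 0.212 by limma), Mmp7, Mmp12, Ncan and Odf1 (5 pools each, up to 0.160, 0.140, 0.0996 and 0.162), Atf4, Rhd and Rnase1 (4 pools each, up to 0.113, 0.119 and 0.235), Lin28b (day 7 replicate 2 or 3, up to 0.0775), Tekt2 (day 7 replicate 1 or day 28 replicate 4, up to 0.0850), Gja4 and Ldhc (day 7 replicate 1, 0.107 and 0.0632) and Mcpt10 (day 7 replicate 2, 0.0591). Calls were gained for Cd79b (3 pools), for Tnp2, Cst8 and Ly96 without day 28 replicate 1, and for Ms4a1 and Mir761 without day 28 replicate 4. The cause was not tested. The 3 or 4 pools of an age limit small differences, and genes at or under background have no measured fold.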
